A study of Mus musculus with 30 samples.

Results

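The genes described here are 10 regulators of mitochondrial shape and mitochondrial gene programs, read in ribosome-associated RNA of the nucleus accumbens of female mice. They are the PGC-1 coactivators Ppargc1a and Ppargc1b, the nuclear-encoded regulators Nrf1 and Tfam, the fission genes Dnm1l, Fis1 and Mff, and the fusion genes Mfn1, Mfn2 and Opa1. They were taken by name, and all 10 were found among the 55335 genes of the count table. Mice of genotype D1-Cre-RT or A2A-Cre-RT carried a ribosome tag (RiboTag, RT) switched on by Cre. D1-Cre-RT marks medium spiny neurons with the D1 dopamine receptor, and A2A-Cre-RT marks those with the A2A adenosine receptor, the class that also carries the D2 receptor and is called D2 here. Within each class the sample titles name 3 groups. Control mice had no defeat treatment in their labels, and Resilient and Susceptible mice had both undergone CWDS, chronic witness defeat stress, in which a mouse watches another being defeated. Each of the 6 groups held 5 libraries, 30 in all, and each library pooled 4 mice with alike scores in a social interaction test, taken 24 h before the tissue. Ages were not given in the sources used here. All mice carried a Cre driver and the tag, so no group lacked the transgenes. Because each library is a pool, the spread between libraries is a spread between pools. The p-values set group differences against that spread and not against a spread between single mice.

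Mitochondria divide and fuse continually. Dnm1l encodes Drp1, a dynamin-family GTPase that is drawn from the cytosol to the outer membrane, where adaptors such as Mff and Fis1 sit, and pinches the organelle. Mfn1 and Mfn2 encode the mitofusins, which join outer membranes, and Opa1 encodes the GTPase that joins inner membranes and shapes cristae. PGC-1 alpha and beta, the products of Ppargc1a and Ppargc1b, bind nuclear receptors and other factors, NRF1 among them, and raise the transcription of genes for respiration, including Tfam, whose product packages mitochondrial DNA and starts its transcription. In medium spiny neurons of the nucleus accumbens, Drp1 and PGC-1 alpha have been studied chiefly for their part in responses to cocaine.

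The stretch around the transcription start is shown for 3 genes that passed a test between D1 and D2 libraries and for Opa1, whose stretch holds the binding motif of the NRF1 protein. Each runs 5′ to 3′ on the gene's own strand, from 250 bases before to 50 bases after a RefSeq transcript start on GRCm38.p6, and capitals mark the motif matches. Of the 10 genes, 9 had such a window in the RefSeq table, Ppargc1b being the exception. The windows lie at chr3:32529232-32529531 on the plus strand for Mfn1, chr16:16358982-16359281 on the minus strand for Dnm1l, chr5:136953025-136953324 on the plus strand for Fis1 and chr16:29579084-29579383 on the plus strand for Opa1.
Mfn1: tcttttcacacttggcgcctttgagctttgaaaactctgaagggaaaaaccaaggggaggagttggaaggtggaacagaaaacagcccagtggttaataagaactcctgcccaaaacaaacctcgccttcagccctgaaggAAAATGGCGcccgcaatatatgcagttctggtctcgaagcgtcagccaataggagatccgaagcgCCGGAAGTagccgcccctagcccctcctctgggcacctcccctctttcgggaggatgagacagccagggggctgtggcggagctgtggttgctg
Dnm1l: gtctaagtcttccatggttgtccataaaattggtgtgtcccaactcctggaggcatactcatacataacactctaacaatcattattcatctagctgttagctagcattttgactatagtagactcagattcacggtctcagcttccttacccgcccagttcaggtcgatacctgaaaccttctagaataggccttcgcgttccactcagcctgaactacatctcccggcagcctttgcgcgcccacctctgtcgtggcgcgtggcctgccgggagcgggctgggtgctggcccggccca
Fis1: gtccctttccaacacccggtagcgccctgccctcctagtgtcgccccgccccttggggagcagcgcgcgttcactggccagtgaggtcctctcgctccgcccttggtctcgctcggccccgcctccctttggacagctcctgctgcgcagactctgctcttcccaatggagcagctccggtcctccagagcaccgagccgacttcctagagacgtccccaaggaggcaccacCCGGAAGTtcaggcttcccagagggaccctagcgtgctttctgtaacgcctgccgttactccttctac
Opa1: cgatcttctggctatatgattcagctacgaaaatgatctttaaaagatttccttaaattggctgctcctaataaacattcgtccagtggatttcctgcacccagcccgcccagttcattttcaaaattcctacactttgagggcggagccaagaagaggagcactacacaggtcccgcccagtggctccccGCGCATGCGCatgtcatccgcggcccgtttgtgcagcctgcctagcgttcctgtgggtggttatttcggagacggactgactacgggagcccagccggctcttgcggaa

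The search covered 5 motifs on both strands, which were the NRF1 motif (GCGCA, any base, GCGC), the ETS motif CCGGAAGT (bound by GABP), the cyclic AMP response element TGACGTCA, the estrogen-related receptor motif AAGGTCA and the YY1 motif AANATGGCG. Mfn1 held the YY1 motif at positions -109 to -101 from the start and the ETS motif at -44 to -37. Fis1 held the ETS motif at -18 to -11, and Tfam, whose window is not printed, held it at -47 to -40. Opa1 held the NRF1 motif at -59 to -50, and no match to any of the 5 lay in the Dnm1l window. Over all 32851 windows of the table, the NRF1 motif was present in 4.6%, the ETS motif in 3.89%, the YY1 motif in 2.38%, the receptor motif in 4.72% and the cyclic AMP motif in 1.79%. The last pair was absent from all windows of the 9 genes. A match is a stretch of letters and no measurement of binding.

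The gene counts of a library ran from 28996168 to 65882152. All 10 genes passed the filter on low counts, with 200 counts (Nrf1 in D1 Susceptible 1) to 18672 counts (Dnm1l) for a gene in a library. Several libraries stood apart. D2 Susceptible 1 and 2 had 15822 and 16525 genes with at least 1 count, against 19440 to 22375 in the others. In D1 Susceptible 1 a single non-coding RNA, Gm42418, took 54.9% of the gene counts, against at most 5.46% elsewhere. Libraries of both classes held their own class's markers. The summed level of 6 D1 markers, among them Drd1 and Pdyn, was 1604 to 2407 CPM (the gene's counts relative to the scaled library total) in D1 libraries and 254 to 1715 CPM in D2 libraries. D2 Resilient 5 had the 1715 and lay within the D1 range. D2 Control 5 was next among D2 libraries, at 1127 CPM, against 310 to 653 CPM in the rest of its group. The sum of 6 D2 markers, among them Drd2 and Penk, was 1211 to 2938 CPM in D1 libraries and 4969 to 12893 CPM in D2 libraries, so the other class's markers were not at 0 as a list in any library. Values without D2 Susceptible 1 and 2, or without these, D1 Susceptible 1 and D2 Resilient 5, stand beside the results they change most.

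The 10 genes spanned a 31.6-fold range of level. On the scale of RPKM, which divides CPM by exon length in kilobases and so allows genes to be compared, Fis1 was highest at 64.2 ± 11.4 RPKM (SD over 30 libraries). It was followed by Dnm1l at 49.4 ± 5.86 RPKM and Mfn2 at 47.8 ± 4.04 RPKM. Dnm1l and Mfn2 did not separate, since Dnm1l was above Mfn2 in 13 of 30 libraries, whereas Fis1 was above Dnm1l in 26. Opa1 at 23.4 ± 2.10 RPKM, Mff at 15.5 ± 1.61 RPKM and Tfam at 10.4 ± 1.55 RPKM formed the middle of the order, each above the next gene in 30 of 30 libraries. Mfn1, the other mitofusin, was at 6.07 ± 0.474 RPKM, far under Mfn2. Ppargc1a was at 5.87 ± 1.35 RPKM, and Mfn1 was above it in only 20 of 30 libraries. Ppargc1b was at 4.78 ± 3.37 RPKM, under Ppargc1a in 25 of 30 libraries. Nrf1 was lowest in every library, at 2.03 ± 0.227 RPKM. The lengths are of all annotated exons merged, so a gene used mainly in a short form is understated.

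**Figure D1:**
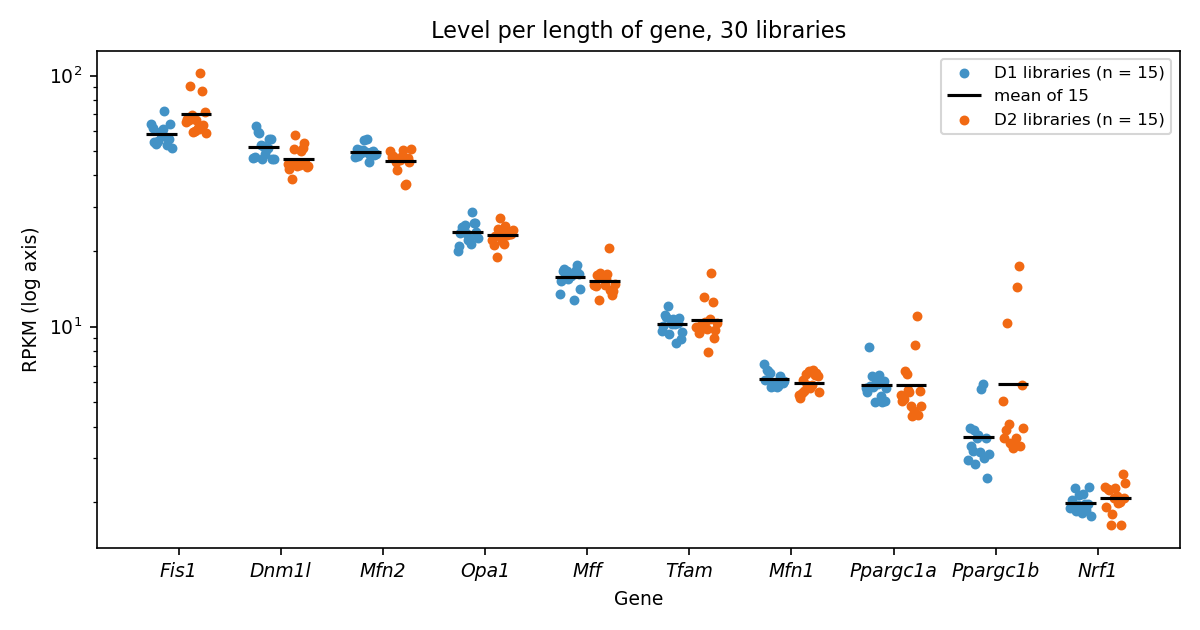
Level of each of the 10 genes in RPKM on a log axis, 1 point per library, with D1 libraries in blue, D2 libraries in orange and a bar at the mean of 15. The order from Fis1 (mean 64.2 RPKM) to Nrf1 (mean 2.03 RPKM) is shared by both classes except between close neighbours, and Ppargc1b has the widest spread, with 3 high D2 libraries.

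Spread between libraries differed much more than rank. The coefficient of variation over 30 libraries was 70.5% for Ppargc1b, 23.0% for Ppargc1a, 17.8% for Fis1 and 14.9% for Tfam. It was 7.82% to 11.9% for the other 6 genes, with Mfn1 the steadiest. Most of the spread of the first 4 lay in D2 libraries, where it was 74.9% for Ppargc1b against 26.7% in D1 libraries, 30.2% against 13.7% for Ppargc1a, 18.3% against 9.59% for Fis1 and 19.1% against 8.78% for Tfam. Over the 28 libraries other than D2 Susceptible 1 and 2, the values were 38.0% for Ppargc1b, 14.4% for Ppargc1a, 12.8% for Fis1 and 10.1% for Tfam.

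**Figure D2:**
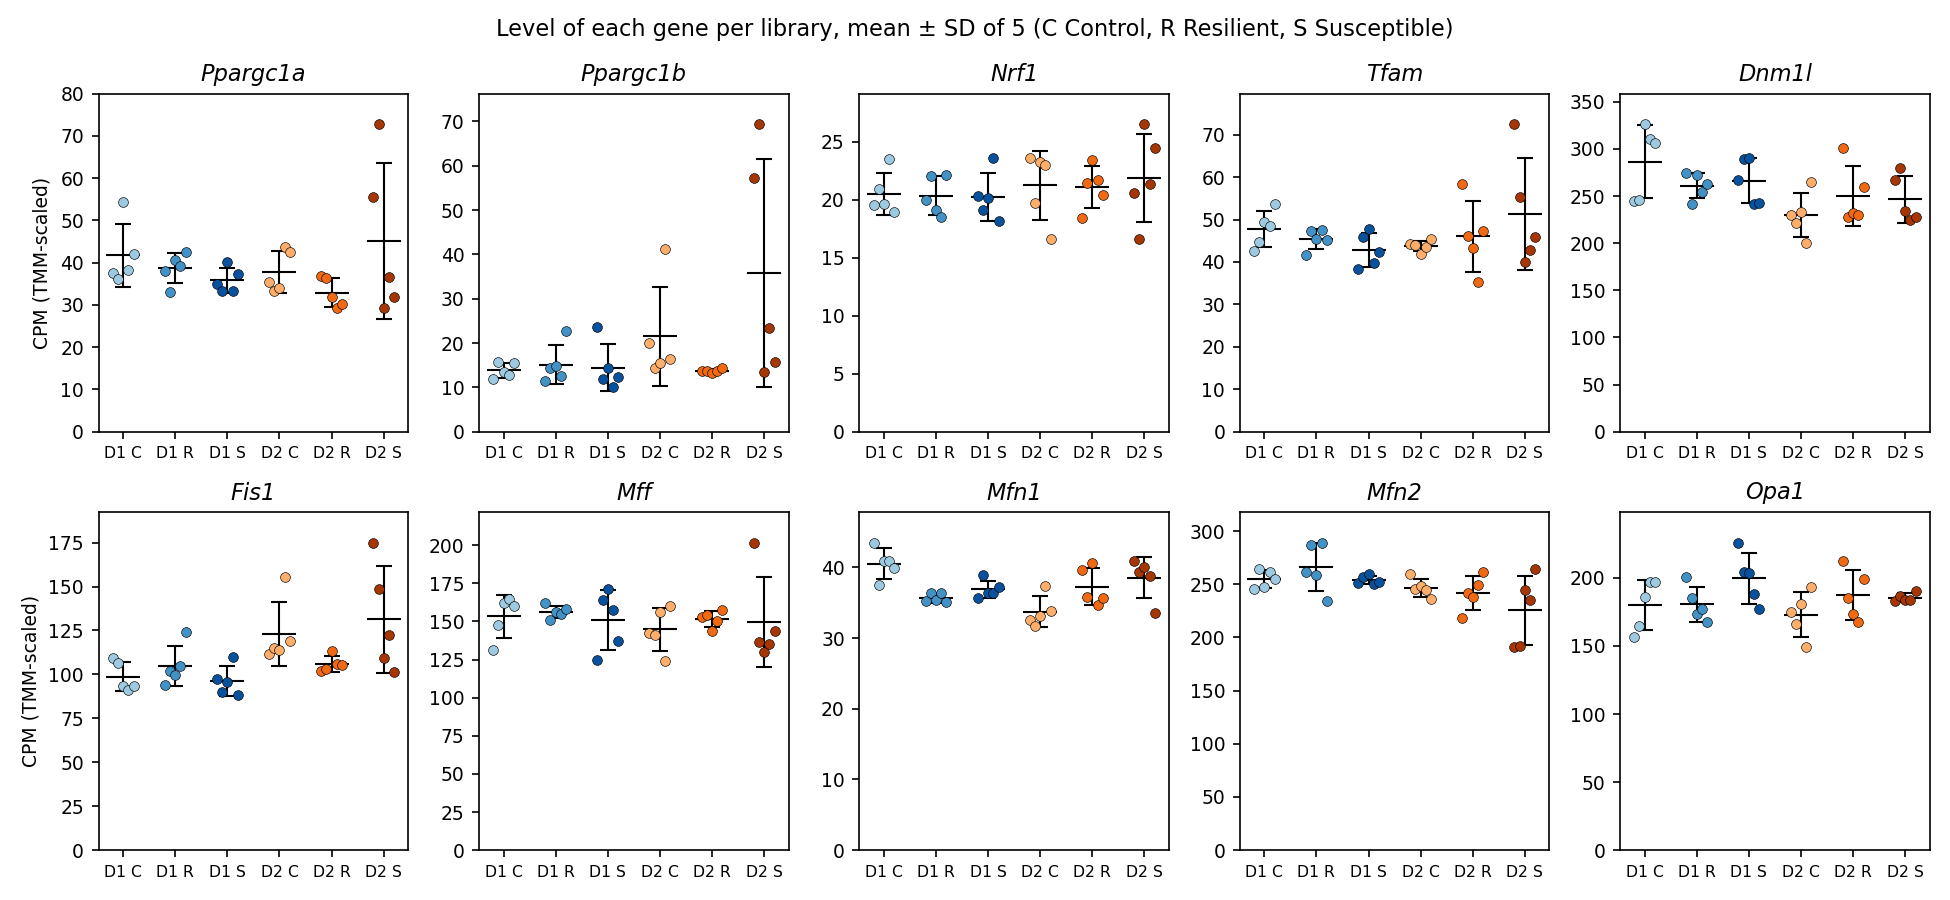
CPM of each of the 10 genes in every library, 1 panel per gene, by group of 5 libraries (C Control, R Resilient, S Susceptible) with the group mean and error bars of 1 SD. D2 Susceptible 1 and 2 lie highest for Ppargc1a (55.5 and 72.7 CPM) and Ppargc1b (57.2 and 69.3 CPM), and D1 Control lies above D2 Control for Mfn1.

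In Control mice, Dnm1l and Mfn1 were higher in D1 than in D2 libraries. These were 2 of the 10 genes, against 8.3% of 19368 genes called in either direction and 3.51% called higher in D1, by edgeR's quasi-likelihood test at an adjusted p of 0.05. Mfn1, the less abundant mitofusin, was at 43.5, 37.5, 40.9, 40.9 and 40.0 CPM in the D1 Control libraries and at 32.6, 31.7, 33.2, 37.4 and 33.8 CPM in the D2 Control libraries. Every D1 library was above every D2 library, though D1 Control 2 and D2 Control 4 nearly met. The difference was 0.27 on the log2 scale (SE 0.071, a ratio of 1.2, edgeR adjusted p = 0.0154). Dnm1l, the fission GTPase, was at 244.5, 245.4, 326.2, 310.5 and 306.1 CPM in D1 Control and at 230.4, 221.6, 233.1, 200.5 and 265.0 CPM in D2 Control. Here 3 D1 libraries lay above all D2 libraries. The others lay under D2 Control 5, which had the highest D1 marker sum of its group, so the groups overlapped. The difference was 0.32 (SE 0.0962, a ratio of 1.25, edgeR adjusted p = 0.0358). The Mfn1 call was kept with each of the 30 libraries left out in turn, while that of Dnm1l was lost without D1 Control 3, 4 or 5 or D2 Control 1, 2 or 4 (adjusted p up to 0.109, log2 differences of 0.28 to 0.33). Neither passed with scaling by library totals alone (log2 differences of 0.26 for Mfn1 and 0.31 for Dnm1l, adjusted p = 0.804 and 0.703). Up to 243 exon bases of Dnm1l overlap an antisense gene, Gm49521, and the strand setting of the counting was not given in the sources used here, so its level may hold some reads of that gene.

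Fis1, the outer-membrane adaptor, stood the other way in Control mice and did not pass. It was at 109.5, 106.3, 93.4, 91.3 and 93.4 CPM in D1 Control and at 111.7, 115.0, 113.8, 155.4 and 119.0 CPM in D2 Control. No D1 library reached the lowest D2 library, and D2 Control 4 was far above its group. The log2 difference was -0.32 (SE 0.114, edgeR adjusted p = 0.0849). Without D2 Susceptible 1 and 2, which are not in the contrast but share its estimate of spread, it was -0.30 and passed (adjusted p = 0.0156). Without D2 Control 4 it was -0.21 (adjusted p = 0.404). Fis1 and Mfn1 were the 2 of 10 genes whose Control groups did not overlap, against 11.7% of all genes. The other 7 genes differed between classes by -0.64 (Ppargc1b) to 0.14 (Ppargc1a) on the log2 scale in Control mice, and none passed. Without D2 Control 4 the Ppargc1b difference was -0.25 (adjusted p = 0.865). Opa1 and Mfn2, the remaining fusion genes, had 95% intervals of -0.11 to 0.23 and -0.11 to 0.21.

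In bulk libraries, fewer cells of a type and less RNA per cell cannot be told apart. Markers of other cells also differed between the classes. In Control mice, 6 of 10 interneuron markers were higher and 1 was lower in D1 libraries (summed 366 to 529 CPM against 117 to 314 CPM). D2 Control 5 had the 314 CPM, and the rest of its group had at most 169 CPM. All 8 endothelial markers were lower in D1 libraries (14.6 to 33.4 CPM against 168 to 316 CPM), and so were 5 of 7 mural markers (16.2 to 34.9 CPM against 157 to 263 CPM) and 4 of 8 astrocyte markers (143 to 246 CPM against 214 to 282 CPM). None of 7 oligodendrocyte and none of 8 microglial markers passed there. No marker was at 0 in every library of a group, and the part of these cells in the differences of Mfn1 and Dnm1l was not tested.

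The class difference in Mfn1 and Dnm1l was not called by edgeR in stressed mice. Among Resilient mice, 0 of the 10 genes passed between D1 and D2, against 6.65% of all genes by edgeR, 0 of the 10 had an unadjusted p under 0.05, against 15.2%, and DESeq2 also called 0. Mfn1 was at 35.2, 36.4, 35.4, 36.4 and 35.0 CPM in D1 Resilient and at 39.6, 35.8, 40.6, 34.7 and 35.7 CPM in D2 Resilient, where 2 libraries lay above all D1 Resilient libraries, 2 lay among them and 1 lay below them. The log2 difference was -0.06 (SE 0.071, edgeR adjusted p = 0.855). For Dnm1l it was 0.06 (SE 0.0961, adjusted p = 0.921), and for Fis1 it was -0.01 (SE 0.114, adjusted p = 0.992). Without D2 Resilient 5 and the 3 unusual Susceptible libraries these were -0.08, 0.07 and -0.02. Among Susceptible mice the Mfn1 difference was -0.06 (SE 0.0712, adjusted p = 0.569) and that of Dnm1l 0.11 (SE 0.0962, adjusted p = 0.421). For Dnm1l it was 0.24 without D2 Susceptible 1 and 2 (SE 0.102, adjusted p = 0.129), and voom called it with all libraries (0.28, adjusted p = 0.0174).

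Among Susceptible mice, Ppargc1b and Fis1 were lower in D1 than in D2 libraries, and both calls rested on D2 Susceptible 1 and 2. They were 2 of the 10 genes, against 23.9% of all genes called in either direction and 13.4% called lower in D1. Ppargc1b was at 23.6, 11.97, 14.3, 10.0 and 12.4 CPM in D1 Susceptible and at 57.2, 69.3, 13.4, 23.4 and 15.8 CPM in D2 Susceptible. The first pair of D2 libraries lay far above the rest. The other 3 lay within the D1 range, the top of which was D1 Susceptible 1. D2 Susceptible 4 and 5 lay above all other D1 Susceptible libraries (10.0 to 14.3 CPM). The log2 difference was -1.33 (SE 0.354, a ratio of 0.398, edgeR adjusted p = 0.00797). Without D2 Susceptible 1 and 2 it was -0.29 (SE 0.287, adjusted p = 0.613), without these, D1 Susceptible 1 and D2 Resilient 5 it was -0.52 (SE 0.276, adjusted p = 0.268), and without D2 Susceptible 2 alone it was -0.93 (adjusted p = 0.0532). Fis1 was at 97.2, 90.3, 95.9, 109.9 and 88.4 CPM in D1 Susceptible and at 174.9, 148.8, 109.2, 122.6 and 101.3 CPM in D2 Susceptible. Again the 2 highest libraries were D2 Susceptible 1 and 2. The log2 difference of -0.45 (SE 0.114, edgeR adjusted p = 0.00524) was -0.18 without them (SE 0.1, adjusted p = 0.278). No gene of the 10 had groups that did not overlap, against 8.92% of all genes.

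**Figure D3:**
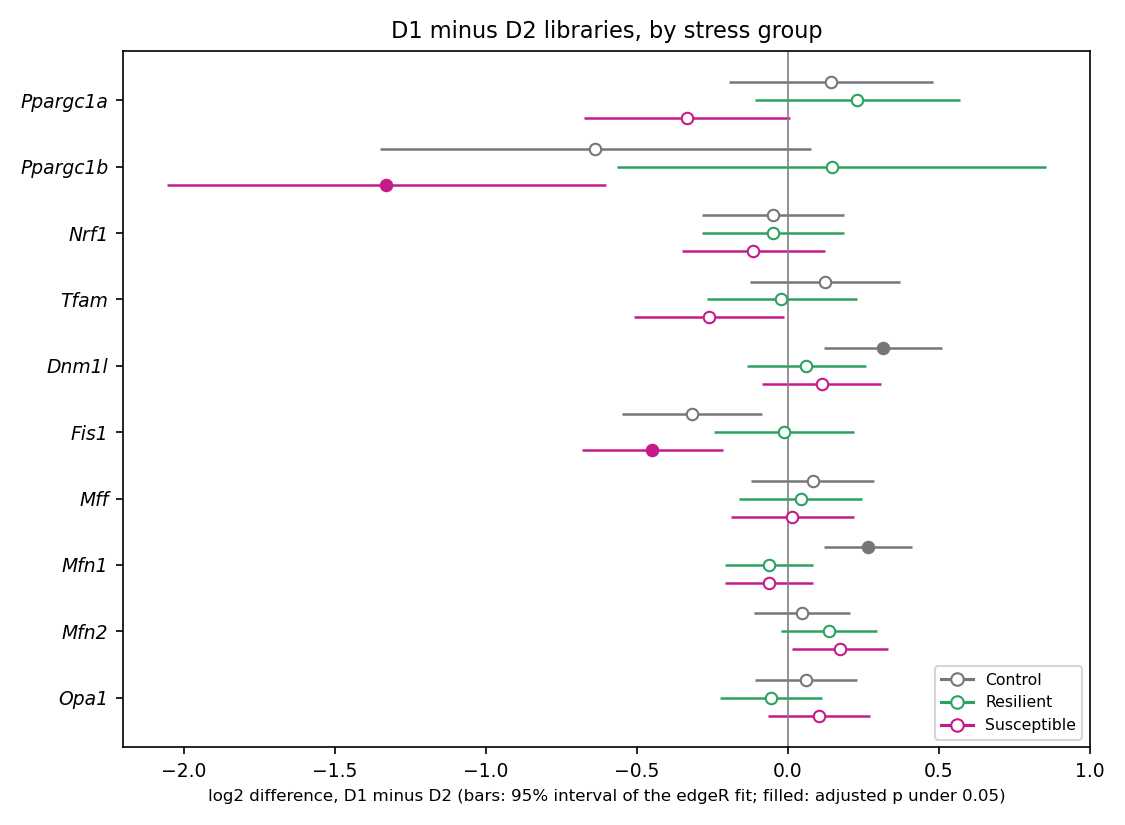
Difference between D1 and D2 libraries for each of the 10 genes in log2 units, with 95% intervals of the edgeR fit, by stress group, filled where the adjusted p was under 0.05. Dnm1l (0.32) and Mfn1 (0.27) are filled in Control mice and Ppargc1b (-1.33) and Fis1 (-0.45) in Susceptible mice, where the calls are lost without D2 Susceptible 1 and 2.

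Several measurements moved with those 2 libraries beside the low number of genes detected. Reads that the counting placed in no annotated exon were 11.1% and 10.4% of their reads, against 5.38% to 7.87% in the other 3 D2 Susceptible libraries. The D1 marker sum was higher in them, at 540.5 and 466.5 CPM against 254 to 333 CPM, and the mural sum lower, at 144 and 131 CPM against 169 to 198 CPM. The endothelial sum was highest in D2 Susceptible 1, at 343 CPM, and 219 to 256 CPM in the other 4. The astrocyte sum was 303 CPM in D2 Susceptible 1 and 225 CPM in D2 Susceptible 2, against 245 to 263 CPM in the other 3. The oligodendrocyte markers were not raised. The summed level of 7 oligodendrocyte markers, among them Mbp and Mobp, was 307 CPM in D2 Susceptible 1 and 346 CPM in D2 Susceptible 2, under the 360 to 438 CPM of the other 3 libraries of that group. D2 Control 4, which had the third highest Ppargc1b level (41.2 CPM), had the highest sum of all 30 libraries, 542 CPM. D1 Control 1 was close behind at 539 CPM, with Ppargc1b at 11.8 CPM. D2 Control 4 also had the second highest endothelial sum (316 CPM) and the second highest microglial sum (51.9 CPM). D2 Resilient 4, with the highest microglial sum (55.3 CPM), had Ppargc1b at 13.6 CPM. In the 27 libraries other than D2 Susceptible 1 and 2 and D2 Control 4, Ppargc1b was at most 23.6 CPM. Reads in no annotated exon were 7.79% in D2 Control 4, against 5.20% to 6.30% in the rest of its group. They were 41.2% in D1 Susceptible 1, with Ppargc1b at 23.6 CPM, and 9.03% in D1 Susceptible 5, with Ppargc1b at 12.4 CPM. By group the oligodendrocyte sum was 238 to 334 CPM in D1 Susceptible. Among D2 groups it was 307 to 438 CPM in Susceptible, 217 to 390 CPM in Resilient and 294 to 542 CPM in Control. Between D1 and D2 Susceptible, 3 of these 7 markers were lower in D1, as were 8 of 8 endothelial, 5 of 7 mural and 5 of 8 astrocyte markers, while 8 of 10 interneuron markers were higher and 1 was lower. None of 8 microglial markers passed. The part of these measurements in the Ppargc1b and Fis1 values was not tested.

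**Figure D4:**
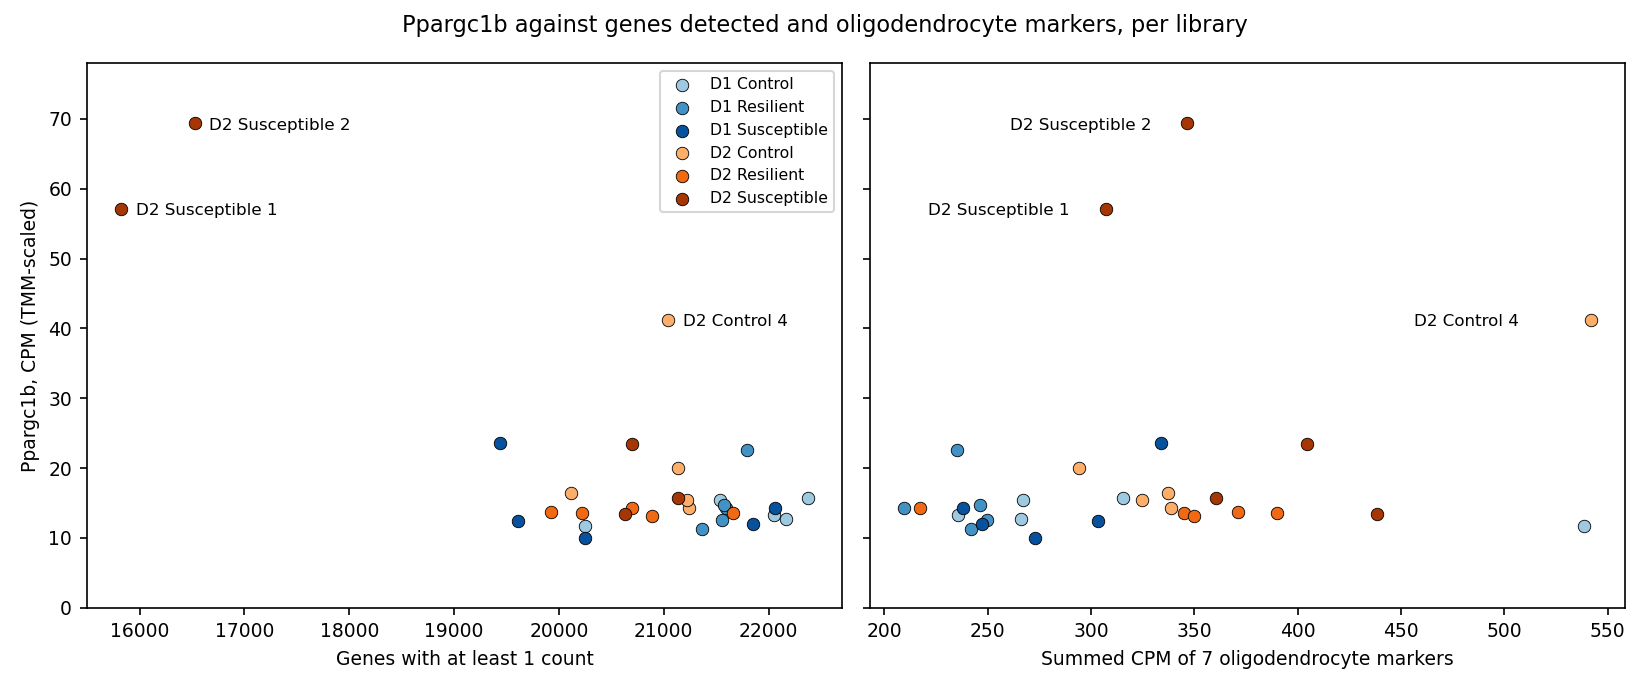
Ppargc1b in CPM in each of the 30 libraries against its count of detected genes (left) and the summed CPM of 7 oligodendrocyte markers (right), coloured by group. D2 Susceptible 1 and 2 have the fewest genes detected (15822 and 16525) and marker sums of 307 and 346 CPM, inside the range of the other libraries, and D2 Control 4, at 41.2 CPM, has the highest sum.

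The next comparisons ask what witnessing defeat, and the outcome of it, changed within each class. In D1 libraries none of the 10 genes passed in Susceptible or Resilient against Control, in Susceptible against Resilient, or in both stressed groups together against Control. The background was 0% of genes in each of the 4 comparisons by edgeR. At an unadjusted p under 0.05 there were 0, 1, 0 and 1 of the 10, against 2.4%, 2.6%, 3.49% and 1.93% of all genes, and DESeq2 called 0 of the 10 in each. Mfn1 came nearest. All 5 D1 Resilient libraries (35.0 to 36.4 CPM) were under all 5 D1 Control libraries (37.5 to 43.5 CPM), a non-overlap that 1.54% of all genes showed. In D1 Susceptible the values were 35.6, 38.9, 36.3, 36.4 and 37.3 CPM, of which 4 were under the Control range. The log2 differences from Control were -0.18 in Resilient (SE 0.071, 95% interval -0.33 to -0.04, edgeR adjusted p = 1) and -0.14 in Susceptible (SE 0.0713, interval -0.28 to 0.01, adjusted p = 1).

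The remaining D1 values differed little between groups relative to their errors. Dnm1l was at 274.0, 241.7, 272.3, 254.3 and 263.1 CPM in D1 Resilient and at 267.5, 289.6, 290.3, 242.0 and 242.6 CPM in D1 Susceptible. All of these lay under the 3 high D1 Control libraries, and the log2 differences from Control were -0.13 (SE 0.0961) and -0.10 (SE 0.0962). Opa1, the inner-membrane fusion GTPase, was at 156.9, 164.3, 185.9, 197.2 and 196.6 CPM in D1 Control and at 225.8, 204.0, 203.3, 188.2 and 176.8 CPM in D1 Susceptible. Of the latter, 3 libraries lay above every Control library, and the log2 difference was 0.15 (SE 0.0829, 95% interval -0.02 to 0.32, edgeR adjusted p = 1). The highest was D1 Susceptible 1, and without it and the other 3 unusual libraries the difference was 0.11 (SE 0.082). Ppargc1a was at 37.6, 36.2, 54.5, 38.3 and 42.1 CPM in D1 Control and at 35.0, 33.2, 40.0, 33.4 and 37.4 CPM in D1 Susceptible. D1 Control 3 was high, 3 Susceptible libraries were under the whole Control range, and the log2 difference was -0.22 (SE 0.167, 95% interval -0.56 to 0.12). Tfam differed by -0.16 in Susceptible and -0.07 in Resilient (SE 0.122 each), and Nrf1 by -0.02 and -0.01. Mfn2, Mff and Fis1 lay between -0.04 and 0.09 in both.

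In D2 libraries none of the 10 genes passed in the corresponding 4 comparisons either. The background was 0.00516% of genes in Susceptible against Control, 0.0516% in Susceptible against Resilient and 0% in the other 2. At an unadjusted p under 0.05 there were 2 of the 10 in Susceptible against Control, 0 in Resilient against Control, 3 in Susceptible against Resilient and 1 in both stressed groups together, against 15.7%, 4.2%, 19.1% and 6.18% of all genes. DESeq2 called 1 of the 10, Ppargc1b in Susceptible against Resilient, and 0 in the other 3. In D2 Resilient, Ppargc1b was at 13.7, 13.6, 13.2, 13.6 and 14.4 CPM, the tightest of the 6 groups. All but 1 of the D2 Susceptible libraries were above that range, and 2 of them by far. The difference was 1.39 on the log2 scale (SE 0.352, edgeR adjusted p = 0.0653). With DESeq2 it was 1.42 (adjusted p = 0.0121), and without D2 Susceptible 1 and 2 it was 0.35 in edgeR (SE 0.284, adjusted p = 1). Against Control, where library 4 was high, Ppargc1b differed by 0.74 in Susceptible (SE 0.346, adjusted p = 0.302), which was -0.30 without D2 Susceptible 1 and 2 (SE 0.288, adjusted p = 1), and by -0.65 in Resilient (SE 0.348, adjusted p = 1).

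Ppargc1a went with its paralog in the same libraries. D2 Susceptible libraries had 55.5, 72.7, 29.3, 36.6 and 31.8 CPM. D2 Resilient libraries had 36.9, 36.4, 31.8, 29.2 and 30.3 CPM, and D2 Control libraries 35.3, 33.4, 34.0, 43.8 and 42.5 CPM. D2 Susceptible 1 and 2 were the 2 highest of all 30 libraries, and the other 3 Susceptible libraries overlapped both groups. The log2 difference between Susceptible and Resilient was 0.46 (SE 0.167, edgeR adjusted p = 0.132), and -0.02 without those libraries (SE 0.119, adjusted p = 1). Tfam had the same pair of high libraries in part, at 72.5, 55.4, 40.0, 42.9 and 46.0 CPM in D2 Susceptible against 41.9 to 45.3 CPM in D2 Control. D2 Resilient 1, at 58.3 CPM, was above the second of them, and the log2 difference between Susceptible and Control of 0.23 (SE 0.122, adjusted p = 0.357) was -0.03 without them. Nrf1 showed no such pattern, with 20.6 and 16.6 CPM in those 2 libraries and 21.4 to 26.5 CPM in the other 3.

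The fission and fusion genes of D2 Susceptible 1 and 2 did not move as 1 block. Mfn2 was at 190.7 and 192.0 CPM there, the lowest of all 30 libraries, against 244.9, 235.5 and 264.0 CPM in the other 3 D2 Susceptible libraries. Fis1 was high in both, at 174.9 and 148.8 CPM. Mff, the other outer-membrane adaptor, was high in the first only, at 201.6 CPM against 136.5 CPM in the second and 130.0 to 143.9 CPM in the other 3. Up to 195 exon bases of Mff overlap the opposite-strand gene C430014B12Rik. Dnm1l was at 267.0 and 279.9 CPM against 233.8, 224.3 and 227.4 CPM. Opa1 ran from 183.2 to 190.4 CPM over the 5 libraries, the narrowest group of that gene. Mfn1 was at 40.9, 39.3, 40.1, 38.8 and 33.5 CPM in D2 Susceptible, so that 4 of 5 lay above all D2 Control libraries, among them 2 outside the unusual pair. The log2 differences of Mfn1 from D2 Control were 0.19 in Susceptible (SE 0.071, edgeR adjusted p = 0.206) and 0.14 in Resilient (SE 0.071, adjusted p = 1). Without D2 Susceptible 1 and 2 the first of these was 0.15 (SE 0.0789, adjusted p = 0.926). For Fis1 the log2 difference between D2 Susceptible and D2 Resilient was 0.31 (SE 0.114, edgeR adjusted p = 0.132). Against D2 Control it was 0.095 in Susceptible (SE 0.113) and -0.215 in Resilient (SE 0.114), where 4 of 5 libraries lay under all D2 Control libraries.

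**Figure D5:**
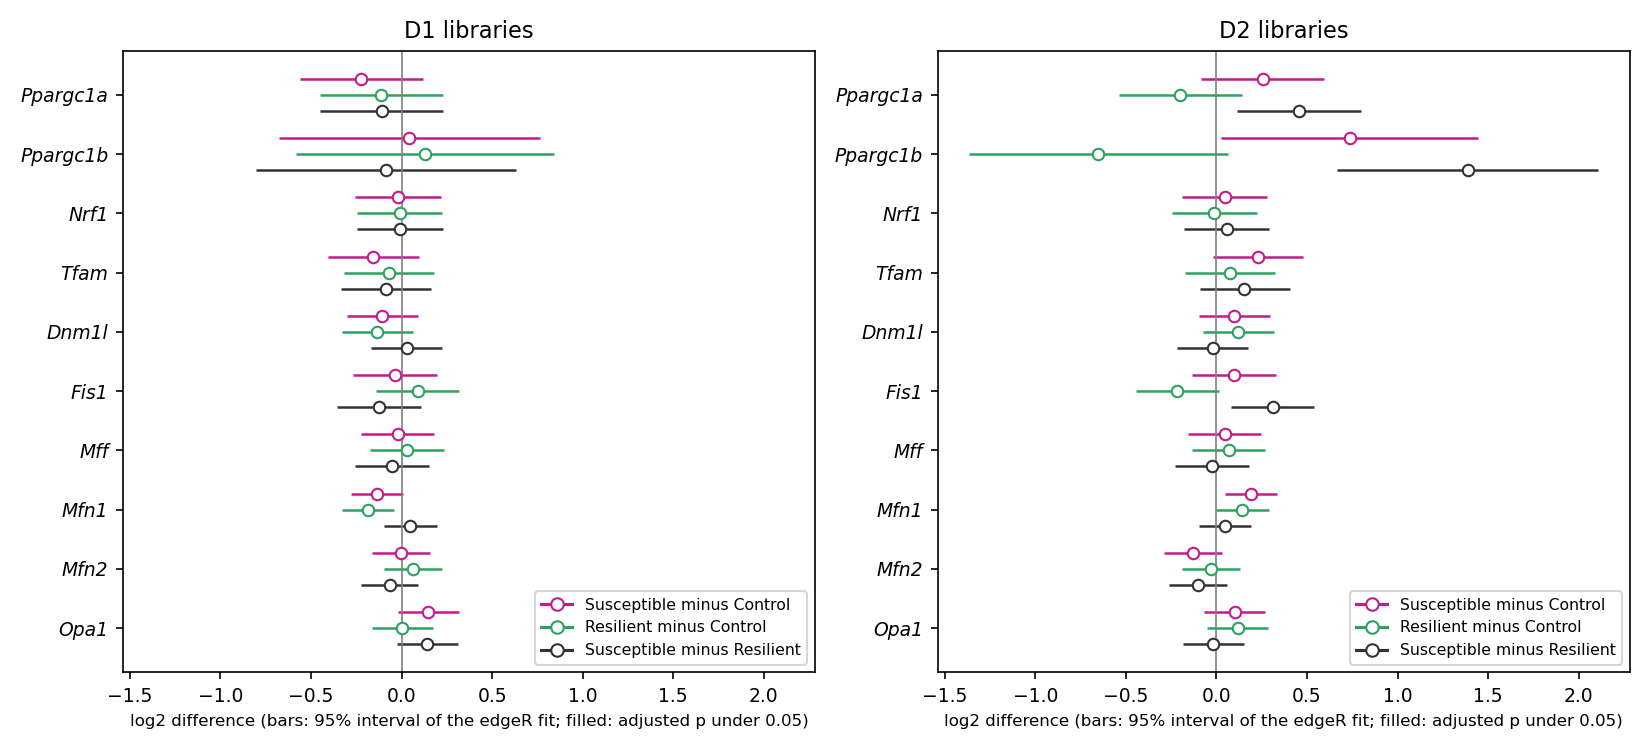
Log2 differences between stress groups within D1 and within D2 libraries for each of the 10 genes, with 95% intervals of the edgeR fit. No difference passed an adjusted p of 0.05, and the widest intervals are those of Ppargc1b, which differed by 1.39 between D2 Susceptible and D2 Resilient.

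Whether stress changed a gene differently in D1 and D2 was tested directly, as the change in D1 minus the change in D2. None of the 10 genes passed for Susceptible or Resilient against Control or for Susceptible against Resilient, against a background of 0% of genes in each by edgeR. At an unadjusted p under 0.05 there were 2, 1 and 3 of the 10, against 7.79%, 4.99% and 12.4% of all genes, and DESeq2 called 0 of the 10. Mfn1 was among those with an unadjusted p under 0.05 in both comparisons with Control. Its change in D1 was lower than in D2 by 0.33 on the log2 scale for Susceptible (SE 0.101, edgeR adjusted p = 0.637) and by 0.33 for Resilient (SE 0.1, adjusted p = 0.648). These 2 tests share the Control libraries, where D1 was above D2. With voom and sample weights the Resilient difference was -0.35 and passed (adjusted p = 0.0325). It was not called in any of the other 10 alternatives nor with any of the 30 libraries left out. Without D2 Susceptible 1 and 2 the Susceptible value was -0.28 (SE 0.105, adjusted p = 1) and the Resilient value -0.32 (SE 0.0971, adjusted p = 0.262). For Ppargc1b, Susceptible against Resilient, the value was -1.47 (SE 0.495, adjusted p = 0.274), and it was -0.45 without them (SE 0.38). The others with an unadjusted p under 0.05 also had negative values. These were Tfam for Susceptible against Control (-0.385, SE 0.173, edgeR adjusted p = 0.637) and 2 genes for Susceptible against Resilient. The latter were Ppargc1a (-0.565, SE 0.236, edgeR adjusted p = 0.327) and Fis1 (-0.435, SE 0.161, edgeR adjusted p = 0.29).

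As a description within each library, the mean log2 CPM of the 3 fusion genes was set against that of the 3 fission genes. CPM is not divided by exon length, so the sign and size of these values, and of the gene pairs below, also hold gene length. Only comparisons between groups can be read from them. Among D1 libraries fusion minus fission had a mean of -0.40 ± 0.04 (SD, n = 5) for Control, -0.44 ± 0.12 for Resilient and -0.35 ± 0.09 for Susceptible. Among D2 libraries it was -0.50 ± 0.05 for Control, -0.42 ± 0.03 for Resilient and -0.52 ± 0.26 for Susceptible, with the lowest library at -0.91. The latter was -0.33 ± 0.05 over the 3 libraries other than 1 and 2. The spread was small enough in D2 Control (-0.57 to -0.44) and D1 Control (-0.46 to -0.36) that their ranges overlapped only at the ends. Mfn2 over Mfn1 was 2.65 ± 0.12 in D1 Control and 2.89 ± 0.10 in D1 Resilient, and 2.87 ± 0.12 in D2 Control and 2.70 ± 0.18 in D2 Resilient. Ppargc1a over Ppargc1b was 1.59 ± 0.30 in D1 Control and 0.93 ± 0.51 in D2 Control. In D2 Susceptible it was 0.56 ± 0.53 over 5 libraries and 0.93 ± 0.25 without 1 and 2. Per length the order there was the other way over 5 libraries, with means of 6.85 RPKM for Ppargc1a and 8.98 RPKM for Ppargc1b. Without 1 and 2 the means were 4.94 RPKM for Ppargc1a and 4.39 RPKM for Ppargc1b.

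Other genes of the same pathways were taken from 7 lists, of which 113 genes passed the filter. None was called in any of the 8 stress comparisons or the 3 tests of D1 minus D2 change. Between D1 and D2 the share of all genes called was 8.3% in Control and 6.65% in Resilient mice, against which the counts below stand. In Control mice 3 of 16 textbook targets of PGC-1 and NRF1 were lower in D1 and none was higher. All 3 encode subunits of cytochrome oxidase, Cox5b (-0.46, SE 0.0876), Cox6a1 (-0.40, SE 0.108) and Cox6c (-0.41, SE 0.128). The median of the list was -0.03, against -0.0028 over all genes. Of 18 genes for the upkeep and transcription of mitochondrial DNA, 2 were lower in D1, the polymerase gene Polg (-0.26, SE 0.0726) and the helicase gene Twnk (-0.33, SE 0.104), with a list median of 0.02. Polg was also lower in D1 in Resilient (-0.28) and Susceptible mice (-0.25, not called without D2 Susceptible 1 and 2). Of 18 other fission and fusion genes, Inf2, a formin that builds actin at division sites, was lower in D1 Control (-0.46, SE 0.126), and Mtfp1, an inner-membrane fission protein, was higher in D1 Resilient (0.59, SE 0.153). Map1lc3a, an autophagosome protein and 1 of 15 mitophagy genes, was higher in D1 Resilient (0.33, SE 0.0968). None of 23 partners and upstream regulators of PGC-1, none of 11 cristae genes and none of 12 transport genes passed in Control or Resilient mice. Without D2 Susceptible 1 and 2, which raised the share of all genes called to 15.3% in Control and 11.3% in Resilient mice, 6 of 16 targets, 4 of 18 mitochondrial DNA genes, 2 of 18 other fission and fusion genes, 4 of 12 transport genes, 2 of 23 partners and 1 of 15 mitophagy genes were called in Control mice. In Resilient mice the counts were then 1, 1, 1, 1, 0 and 3 in the same order, and no cristae gene was called in either.

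In Susceptible mice more of these genes were called. Over the lists together, as over all genes, fewer were called without D2 Susceptible 1 and 2. Of the mitophagy genes 5 were higher and 1 lower in D1, among them the receptor Optn (1.38, SE 0.292) and Bnip3l (-0.48, SE 0.125). Of the transport genes 4 were higher and 2 lower, among them the kinesins Kif5a (0.55, SE 0.133) and Kif5b (-0.65, SE 0.189) and the adaptor Trak1 (0.54, SE 0.134). Of the partners 2 were higher and 2 lower, among them the AMPK subunits Prkaa2 (0.61, SE 0.127) and Prkab2 (-0.38, SE 0.104). Of the targets 4 were lower, among them Cox6c (-0.60, SE 0.128) and Uqcrh (-0.69, SE 0.163). Called genes were 6 of 15, 6 of 12, 4 of 23 and 4 of 16 in these lists, and 4 of 18 for mitochondrial DNA, 1 of 18 for other fission and fusion and 1 of 11 for cristae, beside the 23.9% of all genes. Without D2 Susceptible 1 and 2 the counts were 1, 1, 1, 2, 0, 2 and 0 in the same order, beside 10.4% of all genes. Of the other fission and fusion genes, Miga2 (0.60, SE 0.166) was called with all libraries, and Mtfp1 and Inf2 in its place without that pair. Optn, Kif5a and Prkaa2 were called in both of these fits. With D1 Susceptible 1 and D2 Resilient 5 left out as well, Optn and Prkaa2 were still called. Kif5a was not, and the 1 transport gene then called was Armcx3.

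For Ppargc1a and Mff, the genes whose levels followed them most closely across libraries were read from log2 CPM over 30 libraries, with the mean of each class removed, among 10214 genes. For Ppargc1a these were Dlgap1 (Pearson r = 0.93), Purb (0.895) and Psma4 (0.891), and without D2 Susceptible 1 and 2 the values were 0.878, 0.798 and 0.748. For Mff they included Nop56 (0.839) and Gopc (0.837), and without those libraries the values were 0.778 and 0.745. The libraries share composition and depth effects, so these are descriptions without a test.

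In the GENCODE M21 annotation of GRCm38, Ppargc1a lies at chr5:51454250-51567726 on the minus strand and Ppargc1b at chr18:61298136-61400431 on the minus strand. Nrf1 lies at chr6:30047988-30153458 on the plus strand and Tfam at chr10:71225464-71238280 on the minus strand. Of the fission genes, Dnm1l lies at chr16:16312230-16358959 on the minus strand, Fis1 at chr5:136953275-136966234 on the plus strand and Mff at chr1:82724890-82752394 on the plus strand. Of the fusion genes, Mfn1 lies at chr3:32529465-32579239 on the plus strand, Mfn2 at chr4:147873599-147904704 on the minus strand and Opa1 at chr16:29579334-29654884 on the plus strand. All 10 are protein-coding genes, and the values are counts over their exons.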

How the data were processed

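Tagged polyribosomes were precipitated with an antibody to HA, and 10 ng of RNA per library went into SMART-Seq v4, per the labels' protocols. What the authors deposited are raw read counts over the exons of each gene, made with HISAT2 and HTSeq on GRCm38, also named mm10, per the submitters' processing notes. No version, annotation release or strand setting is given in the sources used here. The 5 summary lines of unassigned reads, 10.1% to 53.3% of a library, stayed out. A table of the series matched the single files in 30 of 30 columns. Symbols came from GENCODE M21 for 55154 of 55335 identifiers, and promoter sequences from RefSeq.

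Genes passing filterByExpr (minimum count 10, minimum total 15) numbered 19368. TMM-scaled counts were tested by edgeR 4.0.16 (robust quasi-likelihood, 1 model of 6 groups over 30 libraries), with Benjamini-Hochberg adjustment over all genes in each of 14 comparisons, at a threshold of 0.05. CPM and RPKM were computed here. The code was checked on simulated data. Alternatives were DESeq2 1.42.0, its size factors, library totals alone, no filter, only the groups compared, the replicate number as a block, voom (limma 3.58.1), 1 surrogate variable (sva 3.50.0), leaving out Gm42418 and mitochondrially encoded genes, and leaving out each library. Fits without D2 Susceptible 1 and 2, also together with D1 Susceptible 1 and D2 Resilient 5, and the list counts under alternatives were chosen after seeing the data. All 10 genes are named in the text, with up to 4 called genes per list and comparison and the 3 most alike genes of Ppargc1a and Mff, except that 1 alike gene and 1 oligodendrocyte marker are not reported here, the latter also left out of its sum. The genes and lists were chosen with earlier results of these data known. Male and human data named in the series description were not analysed here.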

Additional observations from a re-analysis of the deposited data

Results flagged for a closer look

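In 4 of the 60 groups of 5 libraries (10 genes in 6 groups), 1 library lay farther from the others than Dixon's 95% critical value of 0.71 for the ratio of gap to range allows. Chance gives about 1 in 20, or 3 of 60. D2 Control 4 was high for both Ppargc1b, at 41.2 CPM against 14.4 to 20.1 CPM in the rest of its group, and Fis1, at 155.4 CPM against 111.7 to 119 CPM. Mff was high in D2 Susceptible 1, at 201.6 CPM against 130 to 143.9 CPM. Mfn1 was low in D2 Susceptible 5, at 33.5 CPM against 38.8 to 40.9 CPM, with a ratio of 0.711 that barely passes. Without D2 Control 4 the difference of Fis1 between D1 and D2 Control was -0.21 in place of -0.32 on the log2 scale (edgeR adjusted p = 0.404), and that of Ppargc1b was -0.25 in place of -0.64 (adjusted p = 0.865).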

How the results depend on the processing

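Over 11 alternatives and 30 fits that each left out 1 library, 5740 values of the 10 genes were compared with those reported. The side of the threshold was kept in 5699, 22 passed only under the alternative, 18 no longer passed and 1 called value changed sign, which was Ppargc1b between D1 and D2 Susceptible at 0.017 with 1 surrogate variable (adjusted p = 0.983). Among values that were not called, 331 had the other sign under an alternative. Between D1 and D2 Susceptible, where 2 of the 10 genes were called, 0 were called with only the groups compared, with 1 surrogate variable, without D2 Susceptible 1 and 2 and without these and D1 Susceptible 1 and D2 Resilient 5. With voom it was 1, Dnm1l (0.28, adjusted p = 0.0174), and leaving out 1 library gave 1 to 5, with 5 without D2 Susceptible 3. Between D1 and D2 Control, 0 in place of 2 were called with library totals alone, and 1 to 3 with 1 library left out. Fis1 made it 3 without D2 Susceptible 1, with only the groups compared, voom or 1 surrogate variable and in both fits without the unusual libraries. Voom called 1 in place of 0 between D1 and D2 Resilient (Mfn2, 0.15, adjusted p = 0.0374) and 1 in place of 0 for the D1 minus D2 change of Resilient against Control (Mfn1). Between D2 Susceptible and Resilient, DESeq2 called 1 in place of 0 and leaving out 1 library gave 0 to 3, with 3 without D2 Susceptible 3 or 5. The cause was not tested. With the replicate block the counts were 2 in D1 against D2 Control, 2 in D1 against D2 Susceptible and 0 in the other 12 comparisons, so it changed no such count. No pair of same-numbered libraries correlated over 0.1, so the numbers were not taken to pair them. Counts over all genes moved more. Between D1 and D2 Control they were 1608 as reported, 598 with library totals, 2696 with only the groups compared, 2486 with 1 surrogate variable, 3134 without D2 Susceptible 1 and 2, and 5491 with voom. Between D2 Susceptible and Resilient they were 10 as reported and 976 with DESeq2. Scaling by library totals moved the median of all genes to -0.225 in D1 Susceptible against Control, where Gm42418 takes 54.9% of D1 Susceptible 1. With 5 pools a group, SEs between 2 groups of a class were 0.071 to 0.352 log2 units, and differences of several SEs, such as 1.39 with an SE of 0.352 for Ppargc1b, could still miss the threshold.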
